A study of Mus musculus with 9 samples.

Results

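The immunoglobulin variable (V) genes of the mouse were followed in whole lung RNA. Members were chosen by name and by their counts in these samples: the symbol had to start with Ighv (heavy chain), Igkv (kappa light chain) or Iglv (lambda light chain), the annotated type could not be a pseudogene, and the count had to be above 0 in at least 3 of the 9 samples. By that rule 188 of 53342 genes were members, of which 93 were Ighv, 92 Igkv and 3 Iglv genes. That they were detected is therefore not a finding.

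Poly(A) RNA of whole lung from C57BL/6 mice was sequenced in 9 samples that form 3 groups of 3. Normoxia (replicates 2, 3 and 5) and hypoxia (replicates 1, 2 and 5) are titled WT, and hypoxic mice were kept at 10% oxygen for 3 weeks. The PTH group (replicates 3, 4 and 5) was hypoxic as well and was injected with parathyroid hormone, as PTH 1–34, at 40 µg/kg per day. A saline-injected sham group is mentioned for the study, without a statement of which samples it comprises. Whether the samples come from different animals is not stated, so the p-values cover only variation among these samples, which may be technical.

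Each B cell builds its antibody by joining a V gene to joining (and, in the heavy chain, diversity) segments. As a rule its antibody has a single kind of heavy and a single kind of light chain. The V gene is transcribed together with the constant gene, weakly in a resting B cell and strongly in a plasma cell, so that an expanded plasma cell clone can dominate the V transcripts of a tissue. In the lung, B cells lie in the circulation and in the tissue, and plasma cells that make IgA sit along the airways.

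The genes lie at 3 loci of the mm10 genome. The Ighv members span chr12:113578504-116000461, the 93 of them on the minus strand. The Igkv members span chr6:67555497-70704177, with 35 on the plus and 57 on the minus strand, and the Iglv members span chr16:19085017-19260859 on the minus strand. In GENCODE M21, whose positions and strands matched those of the deposited table for all 348 V gene rows, each of the 188 members has 2 exons, a leader exon and a V exon, and a transcript of 338 to 501 bases.

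Members resemble each other closely, which limits how well reads could be assigned. The median identity of a member's V exon to its nearest relative was 95.4%, and 105 of 188 members had a relative at 95% or more. Ighv1-62-2 and Ighv1-71 have identical V exons, so reads that lie wholly within that exon cannot be told apart. How reads that fit several genes were divided is not given in the sources used here, and values of members with close relatives are uncertain to that extent.

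Sequences are shown for the genes on which the results turn, beside the nearest relative of each where that is also a member. They are the last 120 bases of the V exon, which encode the third framework region and the start of the third hypervariable loop, on the coding strand and 5′ to 3′. Capitals mark the bases that differ from the other sequence of the pair.
Ighv1-54, chr12:115193675-115193794 (minus): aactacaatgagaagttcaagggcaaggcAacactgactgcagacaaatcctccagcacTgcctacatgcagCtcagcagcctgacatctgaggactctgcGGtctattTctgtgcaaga
Ighv1-63, chr12:115495625-115495744 (minus): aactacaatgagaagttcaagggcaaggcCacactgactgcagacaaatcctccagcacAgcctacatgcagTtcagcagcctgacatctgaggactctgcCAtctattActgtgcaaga
Igkv1-110, chr6:68271148-68271267 (plus): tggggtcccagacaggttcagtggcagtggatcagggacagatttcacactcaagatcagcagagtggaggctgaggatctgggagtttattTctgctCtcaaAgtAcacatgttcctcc
Igkv1-117, chr6:68121708-68121827 (plus): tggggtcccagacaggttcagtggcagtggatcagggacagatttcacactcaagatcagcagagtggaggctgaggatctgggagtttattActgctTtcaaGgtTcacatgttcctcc
Igkv9-120, chr6:68050337-68050456 (plus): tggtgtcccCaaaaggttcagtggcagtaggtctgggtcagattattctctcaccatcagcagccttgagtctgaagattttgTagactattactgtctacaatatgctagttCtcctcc
Igkv9-124, chr6:67942074-67942193 (minus): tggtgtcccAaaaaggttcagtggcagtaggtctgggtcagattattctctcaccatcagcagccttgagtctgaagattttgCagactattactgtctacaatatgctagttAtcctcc
Iglv1, chr16:19085017-19085136 (minus): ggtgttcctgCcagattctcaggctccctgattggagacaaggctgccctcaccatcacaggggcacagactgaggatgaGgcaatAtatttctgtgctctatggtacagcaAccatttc
Iglv2, chr16:19260401-19260520 (minus): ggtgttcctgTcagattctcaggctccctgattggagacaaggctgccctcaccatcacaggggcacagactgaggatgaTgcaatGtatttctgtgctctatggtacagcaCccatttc

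These pairs differ at 6, 4, 3 and 4 of the 120 bases. Over the whole V exon the identity was 92.8% for Ighv1-54 and Ighv1-63, 96.8% for Igkv1-110 and Igkv1-117, 96.0% for Igkv9-120 and Igkv9-124, and 97.0% for Iglv1 and Iglv2. The longest identical stretch was 142 bases in the Igkv1 pair. Igkv4-91, which also carries a result, had its nearest relative at 88.0%, a pseudogene. Each printed sequence holds the tyrosine or phenylalanine and cysteine codons found near the end of the third framework region. A tyrosine or phenylalanine codon ending in C, followed directly by either cysteine codon, was found in the last 40 bases of the V exon, on the coding strand in any frame, in 171 of 188 members (91.0%). The share was 83.3% of the 30 V genes that are not pseudogenes but fell short of the rule, and 55.4% of the 130 V pseudogenes.

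Of the 218 V gene rows that are not pseudogenes, 30 fell short of the rule: 18 had no count in any sample, 9 had a count in 1 sample and 3 in 2 samples. Ighv8-2, Igkv3-3 and Igkv4-81 were just outside, with 7.98, 4.07 and 4.00 counts in all. Of the 13 members just inside, with a count in 3 samples, Ighv8-6 and Ighv11-1 had the lowest totals, 1.55 and 3.12 counts. At the other end, 86 members had a count in all 9 samples. The 130 V pseudogenes left out held 0.159 to 0.668% of the V counts of a sample.

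Total counts per library ran from 40234030 to 58391086, of which the 188 members together took 1694 to 6835. The V genes are thus a sparse measurement in this tissue. Levels are given as CPM, counts scaled to library size after TMM normalization, and where genes are compared with each other as the authors' TPM, which are per length. The median member had a mean of 1.66 TPM, counting deposited values under 1 TPM as 0, and 12 members reached 10 TPM. Igkv1-110 had the highest mean (34.4 TPM), followed by Iglv1 (26.5 TPM), Igkv1-117 (21.6 TPM), Igkv6-15 (18.9 TPM), Ighv1-26 (18.7 TPM) and Ighv1-54 (18 TPM). For Igkv1-110 and Ighv1-54 this rank came from a single library, described further on.

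The summed V transcript level was lower in hypoxia than in normoxia. The 188 members summed to 128, 91.6 and 132 CPM in normoxia replicates 2, 3 and 5 and to 78.1, 61.0 and 69.0 CPM in hypoxia replicates 1, 2 and 5. The groups did not overlap, with means of 117 ± 22.5 and 69.4 ± 8.54 CPM (SD, n = 3 each) and a log2 ratio of -0.76. In whole tissue, fewer B lineage cells and less immunoglobulin RNA per cell cannot be told apart. Leaving out any of the 6 libraries moved this ratio between -0.91 and -0.66. No p is given for sums over the members, since the members were chosen with earlier results of these data known.

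The PTH libraries spread over the range of both other groups. They summed to 124, 39.1 and 59.8 CPM in replicates 3, 4 and 5, so that replicate 3 lay among the normoxia libraries and replicates 4 and 5 below every hypoxia library. The mean was 74.3 ± 44.2 CPM, a log2 ratio of 0.10 to hypoxia and of -0.66 to normoxia. Without PTH replicate 3 these ratios were -0.49 and -1.25, and without replicate 4 they were 0.41 and -0.35, so the direction against hypoxia rests on replicate 3. Both ratios to hypoxia and to normoxia use the same PTH libraries and are not independent.

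The heavy and kappa chains followed the total. Ighv genes summed to 40.1, 32.6 and 47.5 CPM in normoxia, to 26.6, 22.1 and 24.7 CPM in hypoxia, and to 45.5, 13.9 and 19.8 CPM in PTH replicates 3, 4 and 5. Igkv genes summed to 72.4, 55.8 and 74.4 CPM, to 47.3, 37.1 and 41.5 CPM, and to 75.2, 23.5 and 37.3 CPM in the same order. Hypoxia did not overlap normoxia for either chain, at log2 ratios of -0.71 and -0.69. In each library there were 1.72 to 2.20 light chain counts for every heavy chain count, with no gap between groups.

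The lambda chain had the widest relative range of the 3 chains. The 3 Iglv genes summed to 15.8, 3.21 and 10.4 CPM in normoxia, to 4.22, 1.83 and 2.81 CPM in hypoxia and to 3.25, 1.66 and 2.79 CPM in the PTH group. Normoxia replicate 3 lay inside the range of the hypoxic groups. Lambda made up 17.9, 5.45 and 12.3% of light chain counts in normoxia, against 4.71 to 8.19% in hypoxia and 4.15 to 6.95% in the PTH group, so these ranges overlap as well. Iglv1, the most used mouse lambda V gene, held 50.9 to 87.6% of the Iglv counts of a library and accounted for most of the range, with 12.4 CPM in normoxia replicate 2 and 1.26 CPM in hypoxia replicate 2.

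**Figure D1:**
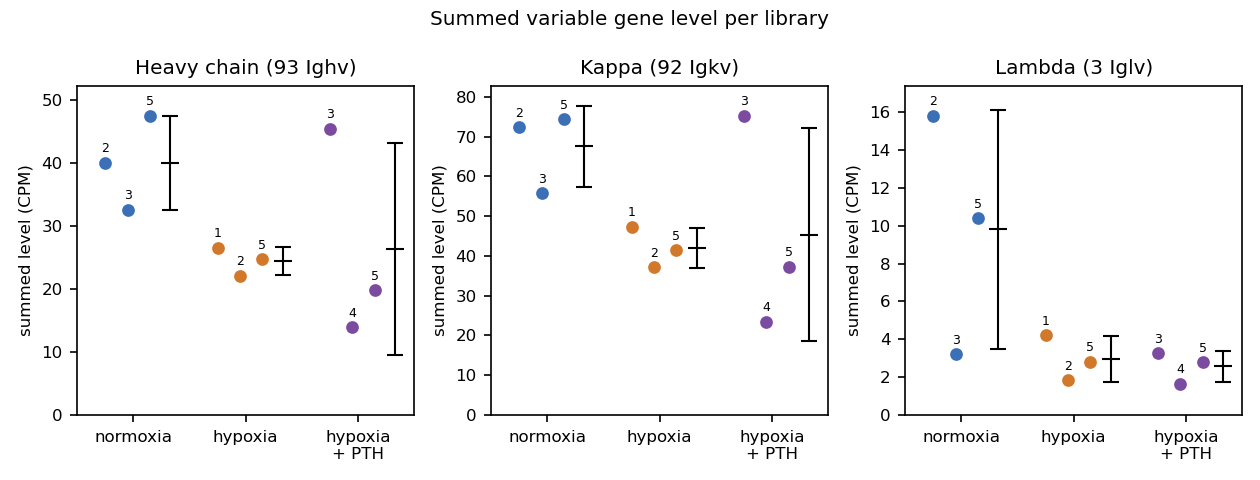
Summed level of the variable genes of each chain (CPM, vertical axis) in each library (points, labelled with the replicate number) by group, with the group mean and SD beside them (n = 3). Hypoxia lies below normoxia for the heavy and kappa chains, and PTH replicate 3 (45.5 and 75.2 CPM) stands apart from PTH replicates 4 and 5.

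Single genes were tested with edgeR's quasi-likelihood test in a fit of all 9 libraries, with Benjamini-Hochberg adjustment over the 19640 genes that passed the filter on low counts. Of the 188 members, 110 passed (50 Ighv, 57 Igkv and 3 Iglv) and 78 did not. A member could pass through the libraries of a single group, and its direction then follows in part from the filter. The medians and counts of tested members below include such genes. Genes with an adjusted p under 0.05 were called.

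In hypoxia against normoxia, 0 of the 110 tested members were called, against 0.57% of all genes tested. At an unadjusted p under 0.05, 27 members were lower, where 5.37% of all genes were, and 0 were higher, where 6.45% of all genes were. DESeq2 called 11 of the 96 members it gave an adjusted p (11.5%) and 3.95% of all genes, and limma-voom called 1 of 110 members and 0.54% of all genes. Each of these members was lower in hypoxia. The median log2 fold change of the tested members was -0.96, and that of all genes tested was -0.00. Over the 188 members, tested or not, the group mean was lower in hypoxia for 146 (77.7%) and higher for 42, while 50.2% of the 27288 genes with a count in at least 3 samples were lower. By chain, the mean was lower for 67 of 93 Ighv, 76 of 92 Igkv and 3 of 3 Iglv genes.

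The smallest p-values of that comparison belonged to 2 kappa genes and a heavy chain gene. Igkv16-104 stood at 1.29, 0.587 and 1.99 CPM in normoxia and at 0.247, 0.188 and 0.182 CPM in hypoxia, a log2 fold change of -2.62 (standard error, SE, of 0.52, edgeR adjusted p = 0.0615). Igkv3-4 stood at 1.08, 0.824 and 0.842 CPM in normoxia and at 0.258, 0.247 and 0.222 CPM in hypoxia (log2 fold change -1.95, SE 0.41, edgeR adjusted p = 0.0743). Ighv1-81 stood at 1.29, 1.23 and 1.63 CPM in normoxia and at 0.436, 0.125 and 0.132 CPM in hypoxia (log2 fold change -2.58, SE 0.54, edgeR adjusted p = 0.0747). In each of these 3 genes the groups did not overlap, and none passed the threshold. Of the members with a higher fitted value in hypoxia, Igkv6-15 had the smallest p, with 2.55, 1.52 and 2.47 CPM in normoxia and 3.05, 5.05 and 3.42 CPM in hypoxia (log2 fold change 0.82, SE 0.45, edgeR adjusted p = 0.537). Igkv5-48 followed at 1.18 on the log2 scale (SE 0.65, edgeR adjusted p = 0.541), which rested on 6.12 CPM in hypoxia replicate 1 beside 0.681 to 1.65 CPM in the other normoxia and hypoxia libraries. With the replicate number as a block, its value was -0.17.

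In hypoxia with PTH against hypoxia, edgeR called 0 of the 110 members and 0% of all genes tested. At an unadjusted p under 0.05, 5 members were lower and 4 higher, where 5.07 and 4.24% of all genes were. DESeq2 called 2 of 84 members, Igkv6-15 and Igkv5-48, both lower with PTH, beside 0.783% of all genes, and limma-voom called 0 of either. The median log2 fold change of the tested members was -0.17, beside -0.01 for all genes tested. The group mean was lower with PTH for 110 of 188 members (58.5%) and higher for 78, while 53.3% of all genes with a count in at least 3 samples were lower. Igkv6-15 stood at 1.83, 0.384 and 1.06 CPM in the PTH libraries, below the 3.05 to 5.05 CPM of hypoxia, at -1.81 on the log2 scale (SE 0.47, edgeR adjusted p = 0.426). Igkv3-4 and Igkv16-104, low in hypoxia, stood at 0.447, 1.08 and 0.512 CPM and at 0.709, 0.318 and 0.709 CPM in the PTH libraries, which did not overlap hypoxia (log2 fold changes 1.53 and 1.47, edgeR adjusted p = 0.426 and 0.472). Both genes had the smallest p for a low value in hypoxia against normoxia. The same hypoxia libraries are the reference here, so a higher value with PTH follows in part from that choice. Igkv17-127 had a log2 fold change of 1.28 (SE of 0.50, edgeR adjusted p = 0.489), with 1.54, 0.436 and 1.73 CPM with PTH and 0.391, 0.391 and 0.703 CPM in hypoxia.

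In hypoxia with PTH against normoxia, 2 of the 110 members were called, Igkv9-124 and Igkv9-120, and both fell. All genes tested were called at 1.74%, so the count of 2 is near the background. Igkv9-124 stood at 1.12, 0.441 and 1.20 CPM in normoxia, at 0.245, 0.302 and 0.547 CPM in hypoxia, and at 0.0456, 0.0462 and 0.0947 CPM in the PTH libraries. From 0.922 ± 0.418 CPM in normoxia to 0.0622 ± 0.0281 CPM with PTH (SD, n = 3 each), it fell by 3.83 on the log2 scale (SE 0.60, edgeR adjusted p = 0.0172). Its PTH libraries lay below both other groups. They held only 1.93, 2 and 4 counts of this gene, near the floor of detection, so the size of the fall is uncertain. Against hypoxia its log2 fold change was -2.52 (SE 0.62, edgeR adjusted p = 0.426), and in hypoxia against normoxia it was -1.31 (SE 0.49, edgeR adjusted p = 0.303). These 3 values share libraries.

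Igkv9-120, its close relative shown above, stood at 2.15, 2.11 and 3.44 CPM in normoxia, at 1.18, 0.599 and 0.479 CPM in hypoxia and at 0.584, 0.794 and 0.423 CPM in the PTH libraries. It fell by 2.09 on the log2 scale from normoxia to hypoxia with PTH (SE 0.40, edgeR adjusted p = 0.0342; 2.57 ± 0.757 to 0.600 ± 0.186 CPM, SD, n = 3 each). Hypoxia without PTH lay in the same range (log2 fold change to normoxia -1.78, edgeR adjusted p = 0.0878). The V exons of the pair share 94 bases in a row, so the 2 calls may share reads. Neither call was left without normoxia replicate 2 or without PTH replicate 4 or 5 (adjusted p from 0.0543 to 0.140), and Igkv9-120 was not called without normoxia replicate 3 or 5 or PTH replicate 3 (adjusted p from 0.0762 to 0.0864). With the replicate number as a block, neither was called (edgeR adjusted p = 0.160 and 0.175).

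At an unadjusted p under 0.05, 36 members were lower with PTH than in normoxia and 1 was higher, where 8.63 and 8.57% of all genes were. The higher member was Ighv1-54 (log2 fold change 4.70, SE 1.90, edgeR adjusted p = 0.264). Its PTH mean of 5.46 ± 8.93 CPM (SD, n = 3) rests on replicate 3, described further on. DESeq2 called 16 of the 109 members it gave an adjusted p (14.7%) and 7.09% of all genes, and limma-voom called 4 of 110 members (3.64%) and 1.56% of all genes. Each of these members was lower with PTH. The median log2 fold change of the tested members was -1.19, beside -0.01 for all genes tested. The group mean was lower for 159 of the 188 members (84.6%), beside 53.6% of all genes with a count in at least 3 samples. Igkv8-16 was at 0 in the 3 PTH libraries and stood at 0.291, 0.239 and 0.324 CPM in normoxia (edgeR adjusted p = 0.0511). That is at least 4.05-fold lower when 3 counts per library are taken as the floor. With a mean of 0.0365 CPM in hypoxia, Igkv8-16 passed the filter through normoxia alone, so its direction follows in part from the filter. Igkv10-96 stood at 3.44, 4.27 and 3.84 CPM in normoxia, at 1.89, 1.75 and 0.911 CPM in hypoxia and at 1.91, 1.25 and 1.30 CPM with PTH. Its log2 fold change to normoxia was -1.34 in hypoxia (SE 0.30, edgeR adjusted p = 0.0889) and -1.37 with PTH (SE 0.30, edgeR adjusted p = 0.0555), and the hypoxic groups did not overlap normoxia. Among members with a higher value, Igkv15-103 stood at 2.36, 1.99 and 1.60 CPM with PTH, above the 0.256 to 1.31 CPM of the other libraries (log2 fold change to normoxia 1.22, SE 0.55, edgeR adjusted p = 0.299). Ighv7-1 had a log2 fold change of 1.88 (SE of 0.99, edgeR adjusted p = 0.380), with 2.36 CPM in PTH replicate 3 and 0.0434 to 1.17 CPM elsewhere.

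In the fit of all 9 libraries, edgeR called no lambda gene in any comparison. Iglv1 stood at 12.4, 1.98 and 7.49 CPM in normoxia, at 3.69, 1.26 and 1.82 CPM in hypoxia and at 1.66, 1.42 and 2.31 CPM with PTH, and normoxia replicate 3 lay within the hypoxic range. Its log2 fold change to normoxia was -1.70 in hypoxia (SE 0.61, edgeR adjusted p = 0.295) and -2.02 with PTH (SE 0.62, edgeR adjusted p = 0.142). Iglv2 stood at 2.02, 0.678 and 2.22 CPM in normoxia, at 0.324, 0.461 and 0.615 CPM in hypoxia and at 1.46, 0.161 and 0.224 CPM with PTH. In hypoxia against normoxia the groups did not overlap (log2 fold change -1.79, edgeR adjusted p = 0.409). Iglv3 stood at 1.33, 0.560 and 0.701 CPM in normoxia and between 0.0858 and 0.376 CPM in the 6 hypoxic libraries (log2 fold change to normoxia -1.87 in hypoxia and -2.44 with PTH, edgeR adjusted p = 0.186 and 0.0708). Iglv3 passed the edgeR filter only with the normoxia libraries, so its direction follows in part from the filter. Its rounded counts in PTH replicates 3, 4 and 5 were 6, 4 and 10. With PTH against normoxia, DESeq2 called Iglv3 (adjusted p = 0.0079). Without PTH replicate 3, edgeR called Iglv2, whose log2 fold change moved from -1.41 to -3.11 (adjusted p = 0.0474).

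**Figure D2:**
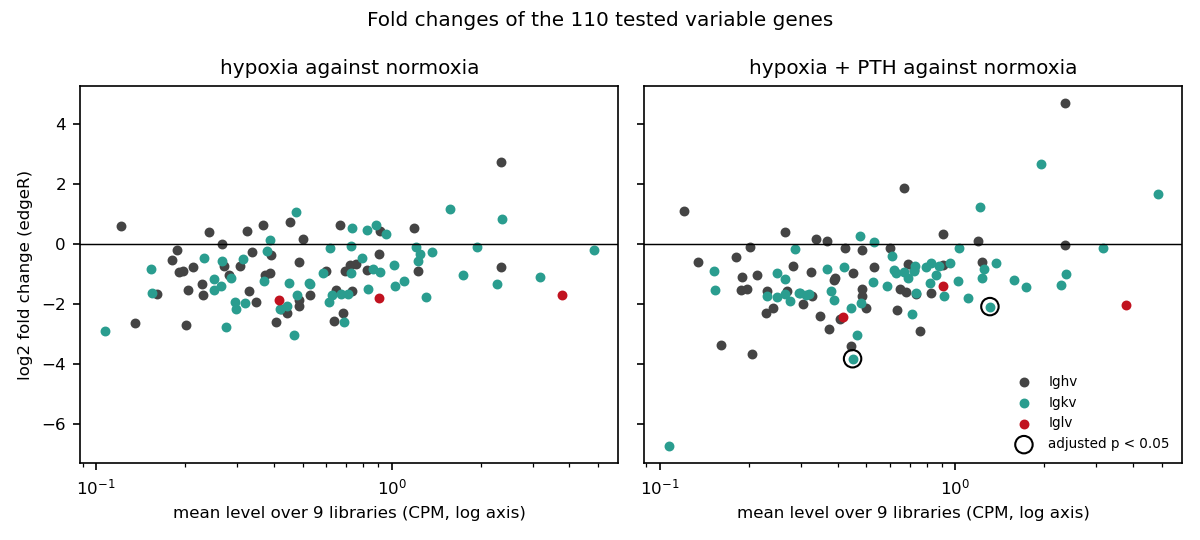
Log2 fold change of the 110 tested variable genes (vertical axis, edgeR) against their mean level over the 9 libraries (CPM, log axis), for hypoxia and for hypoxia with PTH against normoxia, with circles around members called. Most points lie below 0 in both panels, the medians are -0.96 and -1.19, and 2 members are circled; the lowest point on the right, Igkv8-16, is at 0 in the PTH libraries, so that its fitted value is no measure of size.

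The repertoire, meaning how the counts divide among the genes, was more concentrated in the hypoxic libraries. Evenness was measured as the effective number of genes, the exponential of the Shannon entropy of the shares, which is the number of equally used genes that would give the same entropy. For the heavy chain it was 50.8, 50.4 and 50.1 in normoxia, 39.0, 40.9 and 40.9 in hypoxia, and 17.6, 37.3 and 35.7 in PTH replicates 3, 4 and 5. The group means were 50.5 ± 0.329, 40.3 ± 1.07 and 30.2 ± 10.9 (SD, n = 3 each), and the 3 groups did not overlap. The 10 most used Ighv genes held 41.6 ± 0.794% of heavy chain counts in normoxia, 51.4 ± 2.22% in hypoxia and 58.1 ± 11.6% with PTH.

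The hypoxic libraries hold fewer V counts, and a sparser sample shows fewer genes, so each library was also thinned to the smallest total. At 603 heavy chain counts the effective number was 48.2, 48.1 and 47.8 in normoxia, 38.1, 39.8 and 39.3 in hypoxia, and 17.1, 37.6 and 35.2 with PTH. The same order held for the number of Ighv genes with a count at that depth, 71.9 to 74.0 in normoxia, 66.0 to 71.1 in hypoxia and 58.0 to 63.1 with PTH. The heavy chain groups thus kept their order at equal depth. The B cell markers, given further on, were also lower in the hypoxic libraries, and their part in the evenness was not tested.

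The light chains gave less clear groups. Their effective number was 45.3, 54.0 and 52.8 in normoxia, 38.7, 36.0 and 42.4 in hypoxia, and 21, 43.5 and 37.7 with PTH. Normoxia did not overlap the other groups, while PTH replicate 4 lay above every hypoxia library. Thinned to 1095 counts, the ranges were 43.8 to 52.6 in normoxia, 35.5 to 41.6 in hypoxia and 20.5 to 43.8 with PTH, so that PTH replicate 4 and normoxia replicate 2 then met.

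**Figure D3:**
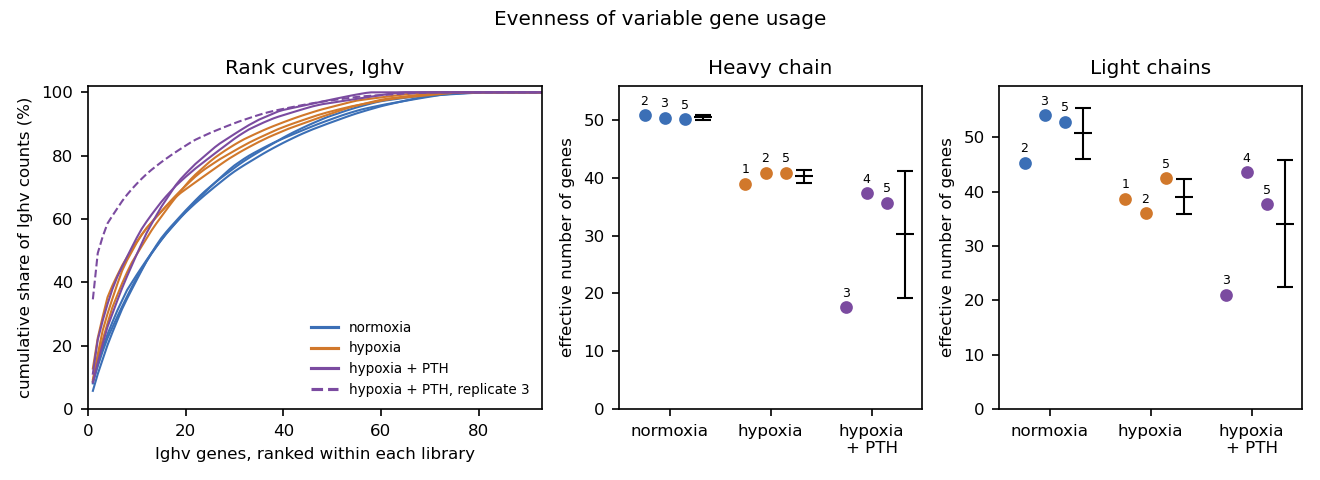
Left, cumulative share of heavy chain counts (%) against Ighv genes ranked within each library; middle and right, effective number of heavy and light chain genes per library (points with replicate numbers), with mean and SD (n = 3). The curve of PTH replicate 3 starts at 34.6% and its effective numbers, 17.6 and 21, are the lowest of the 9 libraries.

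Usage also differed more between hypoxic libraries than between normoxic ones. The overlap of 2 libraries, the sum over genes of the smaller of the 2 shares, was 65.5 to 68.6% for Ighv in the 3 pairs of normoxia libraries and 48.0 to 51.8% in the 3 pairs of hypoxia libraries. PTH replicates 4 and 5 overlapped by 48.7%, and pairs with PTH replicate 3 by 38.4 to 54.0%. For Igkv the overlap was 76.0 to 80.6% within normoxia, 58.2 to 66.2% within hypoxia and 60.1% between PTH replicates 4 and 5. Between normoxia and hypoxia libraries it was 51.8 to 63.2% for Ighv and 60.6 to 68.8% for Igkv. For Ighv, the 3 pairs of hypoxia libraries thus overlapped no more than the least similar pair of a hypoxia and a normoxia library. The overlap also falls with fewer counts, and it was computed on the full counts.

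Different genes led in different libraries. Among Ighv genes, the leader was Ighv1-22 in normoxia replicate 2 (8.10% of heavy chain counts), Ighv1-12 in normoxia replicate 3 (5.75%) and Ighv1-26 in normoxia replicate 5 (8.81%). In hypoxia it was Ighv1-55 in replicate 1 (12.8%), Ighv1-54 in replicate 2 (9.30%) and Ighv1-22 in replicate 5 (8.65%). With PTH it was Ighv1-54 in replicate 3 (34.6%), Ighv10-1 in replicate 4 (8.43%) and Ighv1-80 in replicate 5 (11.2%). Ighv1-22 shows how far a gene can range within a group, with 3.25, 0.214 and 0.459 CPM in normoxia, 0.145, 0.127 and 2.14 CPM in hypoxia and 0.273, 0 and 0.228 CPM with PTH.

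Among Igkv genes, Igkv1-117 led in normoxia replicates 2 (6.90% of kappa counts) and 5 (5.83%) and in PTH replicate 5 (19.1%), and Igkv10-96 led in normoxia replicate 3 (7.66%). Igkv5-48 led in hypoxia replicate 1 (13%) and Igkv6-15 in hypoxia replicates 2 (13.6%) and 5 (8.24%). Igkv1-110 led in PTH replicate 3 (32.1%) and Igkv15-103 in PTH replicate 4 (8.44%). The leading kappa gene held 5.83 to 7.66% in normoxia, which is below every one of the other 6 libraries.

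PTH replicate 3 stood apart through a heavy chain gene and 2 kappa genes, which were singled out after their values were seen. Ighv1-54 reached 15.8 CPM there, 667 of 1925 heavy chain counts (34.6%, 95% Wilson interval 32.6 to 36.8%). In the other libraries it lay at 0.235, 0.0665 and 0.323 CPM in normoxia, at 0.293, 2.05 and 1.85 CPM in hypoxia and at 0 and 0.615 CPM in PTH replicates 4 and 5. In PTH replicate 4 the count of 0 among 603 allows a share of up to 0.498%. Igkv1-110 reached 24.1 CPM in PTH replicate 3, 32.1% of kappa counts (30.5 to 33.8%), against 1.17 to 4.30 CPM in the other 8 libraries. Igkv4-91 reached 12.8 CPM, 17% of kappa counts (15.7 to 18.3%), against 0.0217 to 1.15 CPM elsewhere. Intervals and floors cover counting error only, and they are too narrow where mates of a pair were counted apart.

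These 3 genes together held 42.5% of the V counts of PTH replicate 3 and 2.79 to 9.56% of those of the other libraries. Without them PTH replicate 3 summed to 71.2 CPM, within the 55.2 to 75.5 CPM of the hypoxia libraries, and the log2 ratios of the PTH group became -0.23 to hypoxia and -1.04 to normoxia. The 3 genes were chosen as high in that library, so a fall of these ratios follows from the choice. None of the 3 was called in any comparison by edgeR. For hypoxia with PTH against hypoxia the log2 fold changes were 1.95 for Ighv1-54 (SE 1.59), 1.86 for Igkv1-110 (SE 1.06) and 2.78 for Igkv4-91 (SE 1.52), with edgeR adjusted p of 0.763, 0.634 and 0.621. Without PTH replicate 3 they were -2.19, -0.60 and -0.88, so their direction rests on that library; limma-voom gave -1.24 for Ighv1-54 with it. Igkv1-110 and Igkv1-117 share a stretch of 142 bases, and Igkv1-117 was at 2.51 CPM in PTH replicate 3, inside its range in the other libraries (1.20 to 7.13 CPM). Ighv1-26 was also highest there, at 6.63 CPM beside 0.513 to 4.19 CPM, and its log2 fold change to hypoxia of 0.75 became -1.15 without that library.

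The constant genes show the antibody class in the same library. Ighg2b, which encodes the IgG2b constant region, was at 39.4 CPM in PTH replicate 3 and at 0.620 to 11.7 CPM in the other 8 libraries. Ighg1, Ighg2c and Ighg3, for the other IgG classes, were at 0.839, 0.517 and 0.167 CPM there, inside their ranges in the other 8 libraries. So were Ighm (IgM) at 116 CPM, beside 48.2 to 155 CPM, and Igha (IgA) at 36.4 CPM, beside 25.4 to 107 CPM. Igkc, the kappa constant gene, was too, at 89.3 CPM, beside 38.2 to 125 CPM. PTH replicates 4 and 5 were lower for Ighm (48.2 and 57.2 CPM) and Igkc (38.2 and 58.7 CPM). Igha was at 25.4 and 42.4 CPM there. Short reads of whole tissue do not show which V gene was joined to which constant gene or which light chain was paired with which heavy chain.

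**Figure D4:**
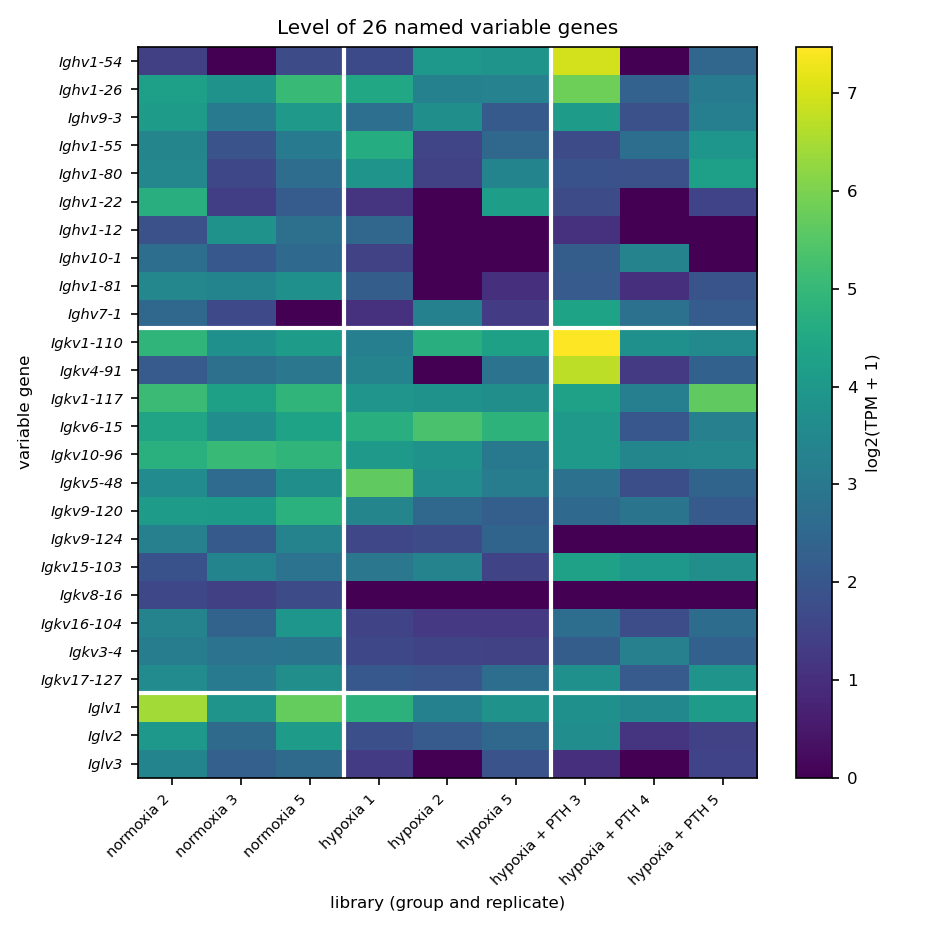
Level of the 26 variable genes chosen by the naming rule, as log2(TPM + 1) from the deposited values (colour), in each library (columns, in the order of the groups), with heavy, kappa and lambda genes from top to bottom. The brightest cells are Igkv1-110, Ighv1-54 and Igkv4-91 in PTH replicate 3 (177, 123 and 105 TPM), and the next is Iglv1 in normoxia replicate 2 (85.5 TPM).

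Some V genes had most of their signal in a single library. In 26 of 188 members (13.8%), more than 50% of the CPM summed over the 9 libraries came from 1 library, beside 4.27% of 9763 other genes of like level (0.023 to 1.5 CPM). Among the 86 members with a count in every library, 3 (3.49%) did so. The other genes were not held to a count in every library, so their share is not a like background for these 86. The highest library held a median of 26.6% of the summed CPM in these 86 members. That median was 31.6% in the 188 members and 23% in the other genes of like level. The 26 were spread over all 9 libraries, with 1 to 5 in each. The highest library was a normoxia library for 116 of 188 members, beside 3389 of the 9763 other genes of like level. Spread within groups was wide as well: the median biological coefficient of variation was 0.570 in the tested members, 0.339 in 5411 other genes of like level and 0.164 in all genes tested. A V gene needed a larger difference than most genes to pass the test.

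The V families are groups of genes of similar sequence. Ighv1, the largest family with 48 members, held 58.5 ± 0.0741% of heavy chain counts in normoxia, 63.2 ± 5.52% in hypoxia and 59.6 ± 14% with PTH, and ranged from 44.5% in PTH replicate 4 to 72.2% in PTH replicate 3. The Ighv5 family, with 9 members, held 7.87 ± 1.56, 6.36 ± 1.59 and 4.97 ± 1.76%, ranges that overlap. Among kappa families, Igkv1 (8 members) held 14.3 ± 2.16, 14.2 ± 3.85 and 26.5 ± 11%, the last through Igkv1-110 in replicate 3 and Igkv1-117 in replicate 5. Igkv6 (9 members) held 13 ± 1.85, 19.8 ± 5.60 and 10.5 ± 2.94%, and Igkv4, with 25 members the largest kappa family, 13 ± 0.588, 12.3 ± 5.00 and 16.6 ± 6.16%. The Igkv12 and Igkv9 families were chosen after their values were seen. Igkv12 (6 members) held 7.34 to 8.19% in normoxia, above the 2.92 to 6.91% of the 6 hypoxic libraries. Igkv9, the family of the 2 called genes, held 4.63 to 6.71% in normoxia, 2.43 to 3.12% in hypoxia and 0.942 to 4.72% with PTH.

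Position in the locus was described by splitting the members of each chain into 3 equal stretches by coordinate. In the kappa locus the 31 genes with the lowest coordinates, farthest from the joining and constant genes, had a mean of 5.74 TPM, against 2.77 TPM in the middle and 3.70 TPM nearest to them, and held 5 of the 9 Igkv genes at or above 10 TPM. The medians were 3.3, 1.64 and 2.74 TPM in the same order. Igkv4-91 is among those 5 only through 105 TPM in PTH replicate 3, beside at most 9.22 TPM elsewhere. The stretch with the lowest coordinates held 43.3 ± 1.40% of kappa counts in normoxia, 38.7 ± 5.56% in hypoxia and 56.7 ± 13.1% with PTH, where it contains Igkv1-110, Igkv4-91 and Igkv1-117. In the heavy chain locus the means were 1.75, 2.37 and 2.82 TPM from the end nearest the diversity, joining and constant genes to the far end, and the medians were 0.931, 1.44 and 1.56 TPM. The mean of the far stretch is raised by Ighv1-54 in PTH replicate 3. The middle stretch held 37.4 ± 4.03% of heavy chain counts in normoxia. The far stretch, which contains Ighv1-54, held 35.1 ± 0.864% of heavy chain counts in normoxia, 42.6 ± 5.08% in hypoxia and 43.0 ± 8.25% with PTH.

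**Figure D5:**
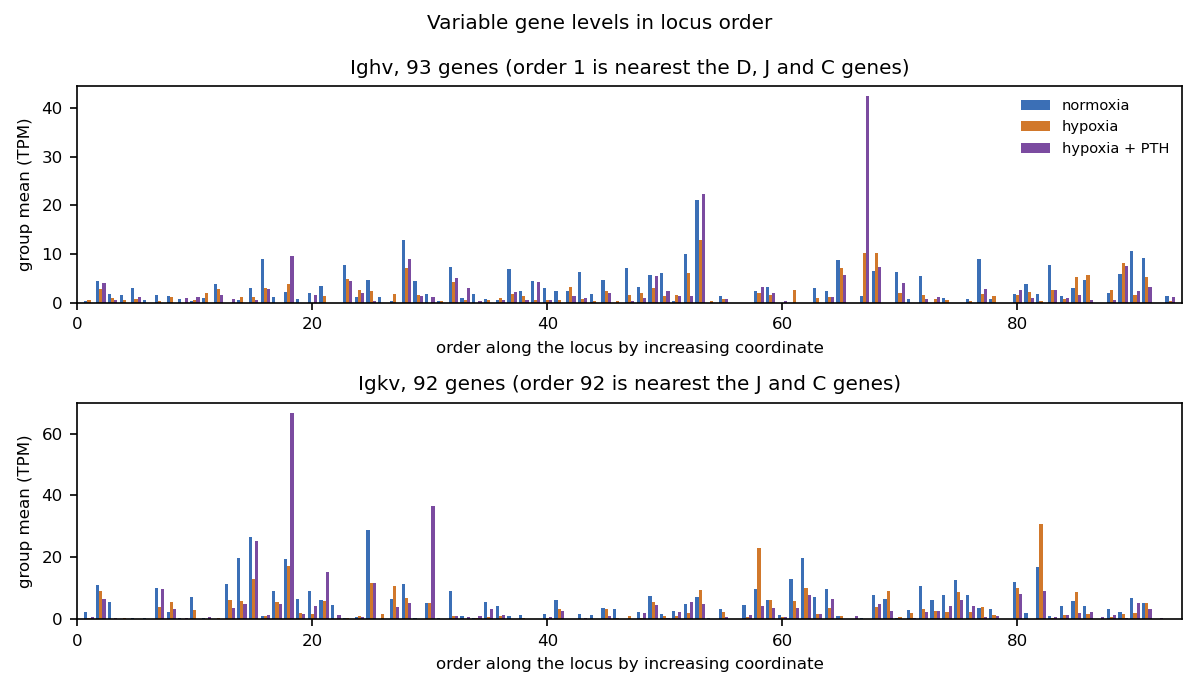
Group mean level of each Ighv and Igkv member (TPM, vertical axis; deposited values under 1 TPM counted as 0) in the order of the coordinates along its locus (horizontal axis), with a bar for each group of 3 libraries. The PTH bars of Ighv1-54 (42.4 TPM), Igkv1-110 (66.7 TPM) and Igkv4-91 (36.7 TPM) stand out and each rests on replicate 3; normoxia bars are the tallest for most other genes.

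Other genes of antibody making gave the following counts, to be read beside the shares over all genes. In hypoxia against normoxia, edgeR called 0.57% of all genes, DESeq2 3.95% and limma-voom 0.54%. Lower at an unadjusted p under 0.05 were 5.37%. For hypoxia with PTH against normoxia these shares were, in the same order, 1.74, 7.09, 1.56 and 8.63%. For hypoxia with PTH against hypoxia they were 0, 0.783, 0 and 5.07%. Of the 11 constant genes tested (Ighe was at 0), edgeR called 0 in hypoxia against normoxia, though 11 of 11 had values below 0 (median -1.20) and 8 were lower at an unadjusted p under 0.05. DESeq2 called 3 of them and limma-voom 1. With PTH against normoxia, Igha was called and fell by 1.53 on the log2 scale (SE 0.19, edgeR adjusted p = 0.00783), from 101, 92.9 and 107 CPM to 36.4, 25.4 and 42.4 CPM, with 45.6, 42.5 and 62.6 CPM in hypoxia. The hypoxic groups did not overlap normoxia for Igha. Iglc1, a constant gene that Iglv1 is joined to in mice, stood at 7.47, 3.19 and 10.3 CPM in normoxia, 3.34, 2.12 and 2.94 CPM in hypoxia and 2.41, 2.04 and 2.38 CPM with PTH (edgeR adjusted p = 0.158 and 0.0650 against normoxia).

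Of 19 B cell genes, edgeR called 1 in hypoxia against normoxia and 2 with PTH against normoxia, all lower. It called 0.57 and 1.74% of all genes there. DESeq2 called 15 and 13, beside 3.95 and 7.09% of all genes, and limma-voom 0 and 1, beside 0.54 and 1.56%. With an unadjusted p under 0.05, 16 and 15 were lower, where 5.37 and 8.63% of all genes were. Values below 0 were found for 18 and 19 of 19 (medians -1.07 and -0.97). Spib, a transcription factor gene of B cells and plasmacytoid dendritic cells, fell by 1.27 in hypoxia and by 1.17 with PTH on the log2 scale (SE 0.22 each, edgeR adjusted p = 0.0420 and 0.0325). Cd37, which encodes a leukocyte tetraspanin, fell by 0.97 with PTH (SE 0.19, edgeR adjusted p = 0.0361). The Spib call in hypoxia was lost on leaving out normoxia replicate 2 or 5, any hypoxia replicate or PTH replicate 5 (edgeR adjusted p from 0.0596 to 0.149). With PTH the Spib and Cd37 calls were lost without normoxia replicate 2 or 5, hypoxia replicate 1 or 2 or PTH replicate 4 or 5, and that of Cd37 also without hypoxia replicate 5 (edgeR adjusted p from 0.0517 to 0.147). With the replicate number as a block, edgeR adjusted p was 0.308 and 0.361 for Spib, 0.321 for Cd37 and 0.0530 for Igha.

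Of 15 plasma cell genes edgeR called 0 in any comparison. At an unadjusted p under 0.05, 3 were lower in hypoxia (Pou2af1, Mzb1 and Sec11c) and 4 with PTH against normoxia (Jchain, Pou2af1, Derl3 and Mzb1), and 1 was lower with PTH than in hypoxia (Derl3). Against normoxia DESeq2 called 2 and 4 and limma-voom 0, and against hypoxia they called 1 and 0. Over all genes, 5.37, 8.63 and 5.07% were lower at that unadjusted p in these comparisons. DESeq2 called 3.95, 7.09 and 0.783% of all genes in them, and limma-voom 0.54, 1.56 and 0%. These shares also stand beside the counts of the next lists. Of the 3 octamer factor genes, which bind V gene promoters or help that binding, edgeR called 0, while 2 (Pou2f2 and Pou2af1) were lower against normoxia at an unadjusted p under 0.05 in either hypoxic group. DESeq2 called 2 in each, and limma-voom called 0 in hypoxia and 1 with PTH. Of 9 recombination and editing genes 3 passed the filter, and 0 were called by edgeR. At an unadjusted p under 0.05, 1 of them, Vpreb3, was lower with PTH than in each of the other groups, and DESeq2 called 1 in each of these comparisons. Vpreb3, whose product pairs with immunoglobulin chains in B lineage cells, stood at 7.25, 7.70 and 4.92 CPM with PTH, below the 11 to 27.2 CPM of the other libraries. Of the 2 antibody transport genes, 0 were called by edgeR, DESeq2 or limma-voom. One of them, Fcgrt, was higher in hypoxia than in normoxia at an unadjusted p under 0.05 (log2 fold change 0.22). So were 6.45% of all genes. Jchain, which joins IgA and IgM into polymers, stood at 25.8, 19.8 and 27.1 CPM in normoxia, 17.6, 15.3 and 13 CPM in hypoxia and 20.3, 7.35 and 10.8 CPM with PTH, and hypoxia did not overlap normoxia. The plasma cell list also holds Sdc1 and Xbp1, which lung epithelium expresses and which stood at 184 to 253 and 175 to 271 CPM.

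The 5 B cell markers (Ms4a1, Cd79a, Cd79b, Cd22 and Pax5) lay lower in the 6 hypoxic libraries, PTH replicate 3 included. Against normoxia edgeR and limma-voom called 0 of them in either hypoxic group. DESeq2 called 5 in each group, and 5 were lower at an unadjusted p under 0.05 in each. Over all genes, 5.37% in hypoxia and 8.63% with PTH were lower at that p, and DESeq2 called 3.95 and 7.09%. The markers summed to 190, 100 and 120 CPM in normoxia, 67.5, 45.1 and 77.9 CPM in hypoxia and 78.8, 50.1 and 60.2 CPM with PTH, and normoxia did not overlap the other groups. T cell markers, 7 of 7 below 0 in hypoxia against normoxia, summed to 36.1 to 50.6 CPM in normoxia, 22.9 to 39.8 CPM in hypoxia and 23.8 to 36.7 CPM with PTH. Of the lymphoid tissue stroma markers Glycam1 and Madcam1 were at 0, and the sum of the rest did not separate the groups (12.0 to 24.9 CPM in normoxia, 14.6 to 20.8 CPM in the hypoxic libraries).

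Libraries also differed in other tissue. Fat markers summed to 141 CPM in normoxia replicate 2 and to 191 and 153 CPM in hypoxia replicates 2 and 5, against 12.1 to 43.7 CPM elsewhere, and cardiac muscle markers ranged from 26.4 to 1390 CPM. Leaving out the 3 libraries rich in fat markers, an alternative added after seeing the data, left hypoxia replicate 1 as the only hypoxia library. Normoxia kept replicates 3 and 5. The log2 ratios of the V gene sum were then -0.52 for hypoxia and -0.59 for hypoxia with PTH against normoxia. That of hypoxia with PTH to hypoxia was -0.07. The values of -0.52 and -0.07 thus rest on a single hypoxia library. Dbp, an output gene of the circadian clock, was at 160 to 316 CPM in normoxia replicates 2 and 3 and hypoxia replicates 1 and 2 and at 6.14 to 16.5 CPM in the other 5 libraries, which include all 3 PTH libraries. The part of clock phase and of other tissue in the V gene differences was not tested. Lung markers (Sftpc, Ager, Scgb1a1 and Cldn5) summed to 34700 to 44500 CPM in each library.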

How the data were processed

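Poly(A) RNA-seq of whole mouse lung was analysed in 9 libraries, 3 in each of 3 groups, from 1 deposited table. Trimmomatic 0.39, a read trimmer, STAR 2.7.9a, an aligner, and the mm10 genome were used, per the submitters' processing notes. How reads were counted (program, annotation, strand) is not given in the sources used here. In that table, columns of the first kind hold the authors' estimated counts per gene, of which 11.4% of values above 0 are whole. Those of the other kind hold, per the file headers, log2 TPM, with values under 1 TPM at 0. Among whole estimated counts from 1 to 20, 88.8% are even (83.6% among members), so mates of a pair may have been counted apart, and counting intervals are then too narrow. The design foresaw counts, so the estimated counts were rounded for the count tests.

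With edgeR 4.0.16 in R 4.3.3, counts were TMM-scaled, filtered with filterByExpr (minimum count 10, minimum total 15) and fitted in 1 robust quasi-likelihood model of 9 libraries with group as the only term (19640 genes, 6 residual degrees of freedom). F tests were adjusted by Benjamini-Hochberg over all genes and called at 0.05. The same steps were run on simulated data with 1 common spread for all genes and changes planted only above 1 CPM. The tested members were more variable (median biological coefficient of variation 0.570, beside 0.164 in all genes tested). Only 20 members reached 1 CPM, so that run does not show how the test behaves on V genes. CPM are unrounded estimated counts scaled to TMM-normalized library size. Sums, effective numbers, shares and overlaps are descriptions with no test, and thinning used the mean of 200 draws.

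Members and lists were chosen with earlier results of these data known. A gene of the B cell lists is not reported here. Genes named are the called members, the 5 highest of each chain (all Iglv), the leading Ighv and Igkv gene of each library, the 3 smallest p in each direction of each comparison, and those next to the membership rule. Others are said to be chosen after their values were seen. Positions matched GENCODE M21, from which the sequences were read. A search for promoter octamers and recombination signals was planned and not analysed here.

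The alternatives were DESeq2 1.42.0 and its size factors, limma-voom (limma 3.58.1), no filter, a minimum count of 50, only the 6 libraries compared, counts halved, a threshold of 0.1, the replicate number as a block, leaving out each library, stricter membership, TPM in place of counts, and sums without the highest genes. Same-numbered libraries form fewer than 3 pairs in each comparison and were not treated as pairs.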

Additional observations from a re-analysis of the deposited data

How the results depend on the processing

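The log2 ratio of the summed V level of hypoxia to normoxia kept its direction under every alternative run (-0.91 to -0.52). The ratio of hypoxia with PTH to normoxia did too (-1.25 to -0.35). That of hypoxia with PTH to hypoxia changed sign (-0.49 to 0.41, and -0.11 without the 5 highest members). The value of -0.52 came from the run without the libraries rich in fat markers, which left hypoxia replicate 1 alone in its group. Counts of called members moved with the test, the filter and the threshold, and DESeq2 changed both test and filter. In hypoxia against normoxia, where edgeR called 0, DESeq2 called 11, limma-voom 1, edgeR with no filter 2 and at an adjusted p under 0.1 5, and leaving out 1 library gave 0 to 2 (1 without normoxia replicate 3 or hypoxia replicate 1, 2 without PTH replicate 4). In hypoxia with PTH against hypoxia, DESeq2 called 2 and each other alternative 0. In hypoxia with PTH against normoxia, where edgeR called 2, DESeq2 called 16, limma-voom 4, no filter 7, a minimum count of 50 1, a threshold of 0.1 7 and the replicate block 0, and leaving out 1 library gave 0 to 3 (0 without normoxia replicate 2 or PTH replicate 4 or 5, 1 without normoxia replicate 3 or 5, and 3 without any 1 of the hypoxia replicates). The cause of these differences was not tested.

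The replicate block rests on shared numbers that nothing says mark pairs. The deviations of same-numbered libraries from their group means correlated at 0.14, 0.0035, -0.03, 0.11 and -0.097 across genes. Under the block Igkv5-48 in hypoxia against normoxia was at -0.17, and Iglv1 in hypoxia with PTH against hypoxia at 1.24, beside -0.33 without it. Leaving out 1 library moved that value of Iglv1 between -0.61 and 0.21, the latter without hypoxia replicate 1. Without PTH replicate 3, the log2 fold changes against hypoxia turned to -2.19 for Ighv1-54, -0.60 for Igkv1-110, -0.88 for Igkv4-91 and -1.15 for Ighv1-26, and the highest values on leaving out another library were 2.54, 2.36, 3.39 and 1.25. limma-voom gave -1.24 for Ighv1-54. Of the other values of single genes under an alternative, 556 kept direction and side of the threshold, 28 passed it and 39 no longer did.

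Evenness depended on membership and unit. The heavy chain effective number of normoxia (50.5) was 44.5 on TPM, 36.2 with members of at least 10 counts in 3 samples, 25.2 with members counted in all 9, 49.9 without the 3 genes of PTH replicate 3 (added after seeing the data) and 48.1 thinned. That of hypoxia (40.3) was 31.6, 28.3 and 21.6 under the first 3 of these and 39.0 thinned. For the light chains, normoxia (50.7) was 43.1 and 37.8 under the stricter memberships, and hypoxia (39.1) was 34.3 on TPM and 33.9 and 30.9 under them. The hypoxia mean lay below the normoxia mean in each case. Depth limits single genes: with 1694 to 6835 V counts per library, 78 members did not pass the filter.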
